A study of Mus musculus with 17 samples.

Results

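The transcripts described here are those of 46 mouse genes whose products license, open, copy and finish DNA during S phase, or supply its nucleotides. They were taken from a list of named genes, drawn up with earlier results of these data known. All 46 were present both in the intestinal files, which hold 33840 genes, and in the files labelled liver, which hold 24594 gene identifiers, and all 46 had enough reads to be tested in both. Bulk RNA was sequenced from 17 libraries of wild-type mice in 7 groups. Small intestine was taken after hepatectomy, the surgical removal of liver, or after a sham operation, and was prepared either as crypts or as intestinal epithelial cells (IEC), with 2 libraries in each of the 4 groups. A further 9 libraries carry the label liver and the treatment DSS, and come from days 0, 10 and 20 (3 libraries each). The title of the series ties the liver to the fitness of intestinal stem cells, so the question these genes bear on is how much replication machinery the epithelium carried in each condition. The labels give neither age nor sex, nor whether libraries came from separate animals or pools, so p-values measure the spread between these libraries, which may be technical.

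A cell about to divide first loads the ring-shaped MCM2-7 helicase onto its origins with the help of the origin recognition complex, Cdc6 and Cdt1. Cdc45 and the GINS complex then turn the ring into the active CMG helicase, polymerase alpha with its primase lays down primers, and polymerases delta and epsilon copy the strands, held on DNA by the sliding clamp PCNA. Most of these genes are transcribed under E2F control at the passage from G1 to S phase, and in the small intestine their products mark the dividing cells of the crypt, while the enterocytes of the villus have left the cell cycle.

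The libraries labelled liver did not share a tissue profile. Summed over 9 hepatocyte markers, the level was 927 to 2441 CPM (counts scaled to library size) on day 0 and 104903 to 108984 CPM on day 20, while the sum of 6 crypt stem cell markers was 7171 to 8004 CPM on day 0 and 83.3 to 105.7 CPM on day 20. Day 0 and day 10 thus carried markers of intestinal crypts and little of the hepatocyte list, against their label, and day 20 carried hepatocyte markers. Total counts were 26609786 to 43580050 in the intestinal libraries and 12742629 to 42669857 in those labelled liver, and the hepatectomy libraries had counts for 29790 to 30467 genes against 24425 to 26202 in the sham libraries. In bulk RNA, fewer cells of a type and less RNA per cell cannot be told apart.

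Per length of transcript, the 46 genes spanned a wide range in sham crypts. Levels between genes are compared here as RPKM, which is CPM per kilobase of exon. Pold2, the second subunit of polymerase delta, stood highest at 55.7 RPKM, followed by the flap nuclease Fen1 at 45.1 RPKM and the clamp Pcna at 35.8 RPKM. The 6 MCM2-7 subunits ran from 13.1 RPKM for Mcm2 to 27.7 RPKM for Mcm6. At the low end, the origin recognition subunit Orc1 stood at 1.48 RPKM, the catalytic subunit Pole at 1.38 RPKM and the transcription factor E2f1 at 1.22 RPKM. The order depends on the length used: with the longest transcript in place of all exons, Pcna stood above Fen1, and the median over the 46 genes moved from 10.8 to 14.5 RPKM.

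**Figure D1:**
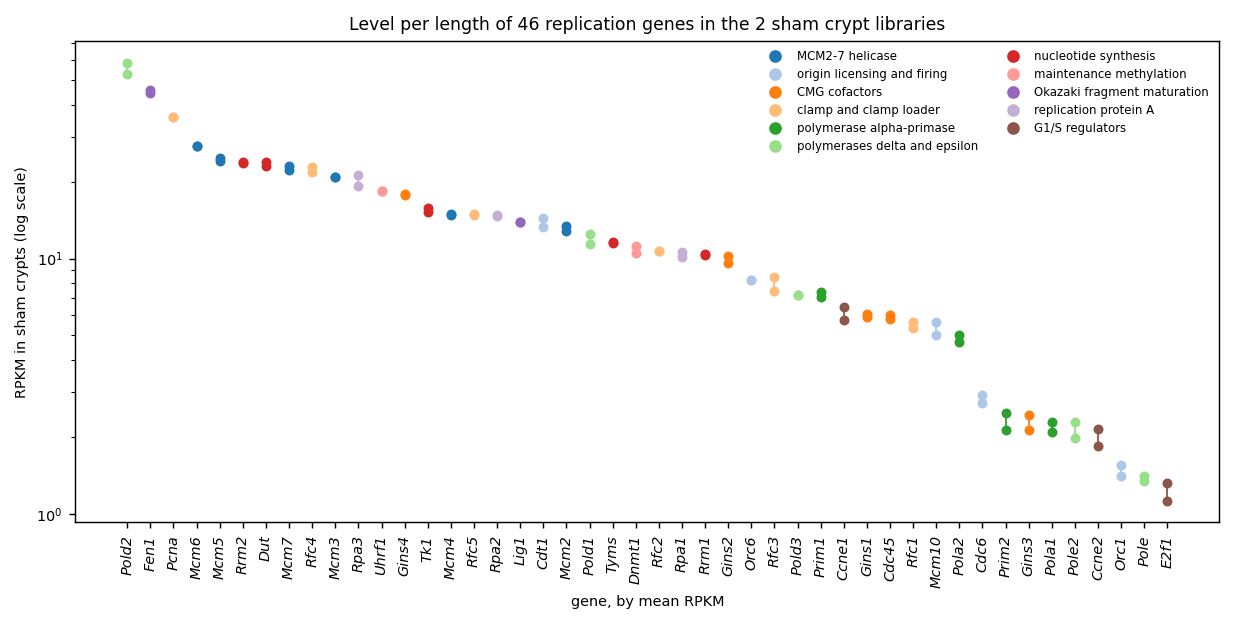
Level of each of the 46 genes in the 2 sham crypt libraries, in RPKM on a log axis, ordered by the mean, with 1 point per library and colours for the roles. The range runs from 55.7 RPKM for Pold2 to 1.22 RPKM for E2f1, and the MCM2-7 subunits rank from 4 for Mcm6 to 20 for Mcm2 among the 46.

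Hepatectomy was followed by lower replication transcripts in crypts across nearly every complex. Of the 46 genes, 38 were lower in hepatectomy than in sham crypts, 0 were higher and 8 did not pass an adjusted p of 0.05 in edgeR's quasi-likelihood test, from which all adjusted p-values here come. Among all 18207 genes tested, 18.3% were lower and 19.2% higher. The median log2 fold change of the 46 was -0.42, with a range from -0.82 for Rrm1 to 0.16 for E2f1, against 0.01 over all genes. The sign was negative for 45 of the 46. By DESeq2, with other filters or scaling, or with 1 library left out, between 31 and 41 were lower, and 30 of the 38 calls held in every such fit. Other markers moved as well: all 8 enterocyte markers were higher, their sum going from 3516 to 3541 CPM in sham to 9771 to 9823 CPM in hepatectomy crypts. Of 6 crypt stem cell markers 4 were lower, their sum going from 1877 to 1921 CPM to 1092 to 1117 CPM, and all 6 Paneth cell and all 6 goblet cell markers were lower. All 6 T and NK cell markers were lower too, with a median of -1.49 and sums of 74.0 to 81.7 CPM in sham and 28.7 to 29.1 CPM in hepatectomy crypts. Of 6 B and plasma cell markers 4 were lower (sums of 14.5 to 17.2 against 5.08 to 5.91 CPM), and of 4 fibroblast markers tested 3 were higher (0.70 to 0.94 against 6.399 to 7.35 CPM). The part of these shifts in the lower replication transcripts was not tested.

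In IEC the same direction was found. There 42 of the 46 genes were lower after hepatectomy, 0 were higher and 4 did not pass, against 18.3% lower and 19.5% higher among all genes tested. The median log2 fold change was -0.65, with a range from -1.06 for Orc1 to 0.06 for Ccne2, against 0.02 over all genes. Lower in both preparations were 36 genes, which is 36 of the 38 in crypts and 36 of the 42 in IEC. The share of all genes lower in both was not counted. All 8 enterocyte markers were higher here too, with sums of 26165 to 26627 CPM in sham and 68790 to 71853 CPM in hepatectomy IEC. Of 6 crypt stem cell markers 4 were lower (sums of 1601 to 1604 against 772 to 789 CPM), of 6 Paneth cell markers 5 were lower and 1 higher, and of 6 B and plasma cell markers 5 were lower (50.7 to 54.0 against 13.98 to 16.6 CPM). Of 6 T and NK cell markers 2 were lower, and of 4 fibroblast markers tested 2 were higher. Unlike in crypts, 3 of 6 goblet cell markers were higher and 2 lower (sums of 6722 to 6989 against 8231 to 8476 CPM). The part of these markers in the result was not tested. The deposited tables of sham and hepatectomy libraries carry running numbers from separate ranges, so surgery and library series cannot be told apart in either preparation.

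**Figure D2:**
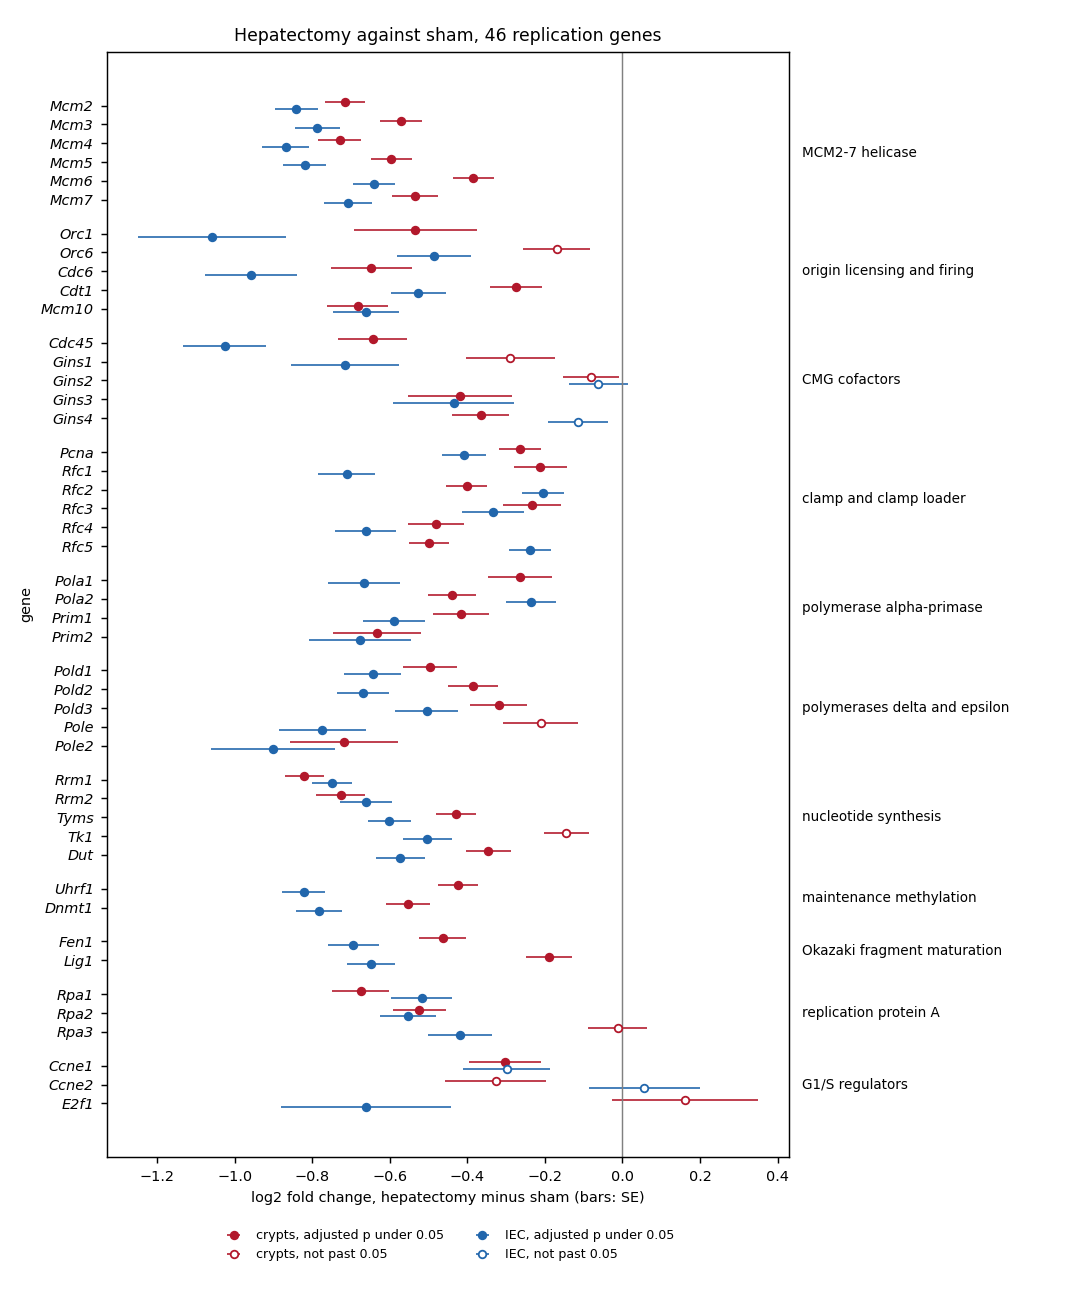
Log2 fold change of each of the 46 genes after hepatectomy, with its standard error, in crypts (red) and IEC (blue), grouped by role. Filled points passed an adjusted p of 0.05. Nearly all points lie left of 0, with E2f1 in crypts and Ccne2 in IEC to the right, and neither of those passed.

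The MCM2-7 helicase subunits were lower as a whole complex, 6 of 6 in crypts and 6 of 6 in IEC, with median log2 fold changes of -0.58 and -0.80. Mcm2 stood at 92.9 and 89.2 CPM in sham crypts and 55.7 and 55.2 CPM in hepatectomy crypts, and at 71.5 and 69.3 against 40.1 and 38.5 CPM in IEC. Libraries of the same group differed by little and the groups did not overlap. The log2 fold changes were -0.72 ± 0.053 in crypts (adjusted p = 7.76e-07) and -0.84 ± 0.055 in IEC (adjusted p = 1.83e-07). Mcm4, another subunit of the ring, had the largest fall of the 6 in crypts, -0.73 ± 0.056, with 53.8 and 53.4 CPM in sham and 32.0 and 32.6 CPM after hepatectomy. Mcm6 had the smallest, -0.38 ± 0.052, from 129 and 129 to 98.3 and 99.8 CPM. Mcm3, Mcm5 and Mcm7 lay between them at -0.57 ± 0.054, -0.60 ± 0.052 and -0.54 ± 0.059. In IEC Mcm6 stood at 119 and 111 against 76.0 and 71.9 CPM. There the 6 were spread over a narrower span of fold changes, from -0.64 ± 0.054 for Mcm6 to -0.87 ± 0.060 for Mcm4. Exons of Mcm7 overlap the annotated spans, introns included, of Cops6, Ap4m1 and the microRNA genes Mir25 and Mir93, so its counts are uncertain. Overlap of exon with exon was not measured.

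Of the 5 genes that load or fire origins, 4 were lower in crypts and 5 in IEC. Mcm10, which helps the loaded helicase to open DNA, stood at 43.3 and 38.7 CPM in sham and 25.5 and 25.5 CPM in hepatectomy crypts, and at 31.7 and 29.2 against 20.3 and 18.2 CPM in IEC. All hepatectomy libraries were below all sham libraries of the same preparation, with -0.68 ± 0.078 and -0.66 ± 0.085 on the log2 scale (adjusted p = 3.51e-05 and 5.69e-05). The MCM loader Cdc6 fell by 0.65 ± 0.11 in crypts and 0.96 ± 0.12 in IEC, and its partner Cdt1 fell by 0.27 ± 0.066 and 0.53 ± 0.070. Orc1, the ATPase of the origin recognition complex, was low throughout, at 4.90 and 5.38 CPM in sham and 4.02 and 3.14 CPM in hepatectomy crypts, and still fell (-0.53 ± 0.16, adjusted p = 0.0189). The crypt call for Orc1 was lost by DESeq2, without sham crypt replicate 2 and without hepatectomy crypt replicate 2 (adjusted p up to 0.167), and that for Cdt1 without sham crypt replicate 1 (adjusted p = 0.0791). Orc6, the smallest subunit, was the exception in crypts, with 20.3 and 20.4 against 17.2 and 18.9 CPM (-0.17 ± 0.087, adjusted p = 0.15), while in IEC it fell by 0.49 ± 0.095.

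Promoters of these genes were looked at because the genes moved together and E2F is their textbook regulator. RefSeq windows on GRCm38.p6, from 250 bases before to 50 after a start site in RefSeq, were found for 38 of the 46 genes (Mcm4, Gins1, Gins2, Gins4, Rfc2, Prim2, Pole and Ccne2 had none). The E2F-type octamers TTTCCCGC, TTTCGCGC, TTTGCCGC and TTTGGCGC were searched on both strands, and a match is a description, not a bound site. At least 1 octamer was found in 16 of 38 genes (42.1%) against 2.60% of 27025 genes with a window, and the median GC content of the windows was 60.7% against 52.7%. Among 62 other genes of the same pathways the share was 25.8%, with 50.0% for other E2F, pocket protein and G1/S genes. Among mitosis genes it was 5.0%. Matches were found for 4 of 5 MCM2-7 genes with a window and 3 of 5 licensing genes, but for 0 of 5 nucleotide synthesis genes and 0 of 3 replication protein A genes. With the first T left off, 63.2% of the 38 genes and 10.9% of all genes had a match. The 250 bases before the RefSeq start site are shown for 5 genes, 5′ to 3′ on the strand of the gene, with matches in capitals. Mcm6 and Mcm5 had the most matches ahead of their start, Cdc6 had the largest fall on day 20, Mcm2 and Mcm10 were lower after hepatectomy and held none, and Mcm10 alone was higher on day 20.
Mcm6 (chr1:128359706-128359955, minus strand): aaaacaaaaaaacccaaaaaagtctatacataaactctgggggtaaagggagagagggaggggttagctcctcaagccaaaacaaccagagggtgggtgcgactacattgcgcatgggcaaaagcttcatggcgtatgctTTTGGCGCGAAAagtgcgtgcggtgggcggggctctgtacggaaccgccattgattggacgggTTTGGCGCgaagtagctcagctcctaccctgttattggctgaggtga
Mcm5 (chr8:75109259-75109508, plus strand): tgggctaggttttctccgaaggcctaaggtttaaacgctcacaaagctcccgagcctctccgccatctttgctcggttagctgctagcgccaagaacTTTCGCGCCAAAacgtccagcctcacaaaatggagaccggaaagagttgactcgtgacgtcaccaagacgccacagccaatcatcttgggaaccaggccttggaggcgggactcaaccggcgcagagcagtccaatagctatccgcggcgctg
Cdc6 (chr11:98907901-98908150, plus strand): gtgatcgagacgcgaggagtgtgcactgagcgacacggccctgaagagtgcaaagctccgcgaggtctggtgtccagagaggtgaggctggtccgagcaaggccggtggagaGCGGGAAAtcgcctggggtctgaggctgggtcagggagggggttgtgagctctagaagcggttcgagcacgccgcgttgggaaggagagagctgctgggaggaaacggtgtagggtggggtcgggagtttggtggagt
Mcm2 (chr6:88898781-88899030, minus strand): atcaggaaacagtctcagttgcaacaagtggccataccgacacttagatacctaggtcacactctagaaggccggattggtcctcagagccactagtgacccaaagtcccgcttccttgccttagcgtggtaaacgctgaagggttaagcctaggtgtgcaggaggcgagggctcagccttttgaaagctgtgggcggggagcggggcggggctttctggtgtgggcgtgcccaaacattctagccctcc
Mcm10 (chr2:5012792-5013041, minus strand): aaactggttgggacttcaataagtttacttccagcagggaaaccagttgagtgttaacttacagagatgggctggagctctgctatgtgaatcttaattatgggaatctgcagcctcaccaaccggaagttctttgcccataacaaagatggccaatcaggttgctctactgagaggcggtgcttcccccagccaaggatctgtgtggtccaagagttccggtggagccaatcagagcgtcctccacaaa
In Mcm6 the matches begin 110, 106 and 47 bases before the start, in Mcm5 153 and 149 bases, and in Cdc6 138 bases. The gene annotation begins Cdc6 at 98907801, ahead of that start site, so the stretch shown for Cdc6 lies inside the annotated gene. In Mcm5 and in the upstream pair of Mcm6, matches on opposite strands overlap and run on as 1 stretch of capitals. Genes with an octamer did not stand far from those without one after hepatectomy: the median log2 fold change was -0.46 over the 16 with and -0.43 over the 22 without in crypts, and -0.69 and -0.60 in IEC.

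The cofactors that complete the CMG helicase were divided. Cdc45 was lower in both preparations, at 20.4 and 21.04 CPM in sham against 13.1 and 13.4 CPM in hepatectomy crypts and at 12.7 and 14.2 against 6.10 and 7.10 CPM in IEC. Its log2 fold changes were -0.64 ± 0.090 (adjusted p = 0.000158) and -1.03 ± 0.11 (adjusted p = 9.31e-06), the largest fall of the 46 in IEC after that of Orc1. Of the 4 GINS subunits, which hold Cdc45 on the ring, Gins2 showed the least difference. It stood at 41.8 and 39.2 CPM in sham and 40.4 and 36.3 CPM in hepatectomy crypts, and at 36.6 and 33.3 against 34.0 and 33.0 CPM in IEC. The groups overlapped in both preparations, with -0.08 ± 0.072 and -0.06 ± 0.076 (adjusted p = 0.413 and 0.565). As a share of the summed RPKM of the 5 cofactors, Gins2 was 23.6% ± 0.85 (SD, n = 2) in sham and 27.8% ± 1.57 in hepatectomy crypts. Gins2 exons overlap the annotated spans of Gse1 and Gm20388, introns included, and whether counting used the strand is not known.

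The other GINS genes passed in one preparation or in both. Gins1 did not pass in crypts (9.19 and 8.96 against 7.01 and 7.80 CPM, -0.29 ± 0.11, adjusted p = 0.0654) and fell in IEC (-0.71 ± 0.14). Gins4 fell in crypts, from 24.3 and 23.9 to 18.8 and 18.5 CPM (-0.37 ± 0.074, adjusted p = 0.00221), and did not pass in IEC (20.2 and 22.5 against 19.7 and 19.7 CPM, -0.12 ± 0.078). The difference between the effects did not pass for either gene (adjusted p = 0.124 for Gins1 and 0.129 for Gins4). Gins3 was low and fell by 0.42 ± 0.13 in crypts and 0.44 ± 0.16 in IEC, but its calls were lost in 4 of 14 and 8 of 14 alternative fits, among them those without replicate 2 of either crypt group and those without any 1 of the 4 IEC libraries (adjusted p up to 0.23 and 0.181).

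The sliding clamp and its loader were lower in all 6 genes in both preparations, with medians of -0.33 and -0.37 that were closer to 0 than those of MCM2-7. Pcna stood at 85.9 and 85.8 CPM in sham and 74.6 and 68.4 CPM in hepatectomy crypts, and at 76.9 and 77.7 against 57.4 and 59.1 CPM in IEC. The groups did not overlap, and the falls were -0.26 ± 0.055 (adjusted p = 0.00259) and -0.41 ± 0.057 (adjusted p = 0.000112). The loader subunits did not move in step. Rfc5 stood at 69.6 and 69.5 CPM in sham against 49.2 and 49.2 CPM in hepatectomy crypts (-0.50 ± 0.051, adjusted p = 1.39e-05), and at 49.5 and 48.6 against 42.0 and 41.2 CPM in IEC, where the fall was smaller (-0.24 ± 0.054). Rfc1, the large subunit, had the opposite pattern: 32.1 and 34.1 to 29.9 and 27.4 CPM in crypts (-0.21 ± 0.068) and 30.6 and 30.7 to 18.6 and 18.8 CPM in IEC (-0.71 ± 0.074). Rfc4 fell by 0.48 ± 0.072 and 0.66 ± 0.079, Rfc2 by 0.40 ± 0.053 and 0.21 ± 0.055, and Rfc3 by 0.23 ± 0.074 and 0.33 ± 0.080. The crypt calls of Rfc1 and Rfc3 were lost in 5 of 14 and 5 of 14 alternative fits (adjusted p up to 0.199 and 0.279), including those without sham crypt replicate 2 or hepatectomy crypt replicate 2. They were also lost by DESeq2, for Rfc1 without sham crypt replicate 1, and for Rfc3 without hepatectomy crypt replicate 1. The IEC call of Rfc2 was lost without sham IEC replicate 2 and without hepatectomy IEC replicate 1 (adjusted p up to 0.0683).

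Polymerase alpha and its primase, which make the primers, were lower in 4 of 4 genes in each preparation. Pola2, the regulatory subunit, stood at 41.5 and 39.1 CPM in sham and 29.2 and 30.1 CPM in hepatectomy crypts, with no overlap (-0.44 ± 0.062, adjusted p = 0.000166). In IEC its fall was -0.24 ± 0.065, a call that was lost without replicate 2 of either IEC group (adjusted p up to 0.0763). The catalytic subunit Pola1 went from 20.1 and 18.5 to 16.3 and 15.8 CPM in crypts (-0.26 ± 0.082) and from 15.8 and 14.6 to 9.58 and 9.63 CPM in IEC (-0.67 ± 0.092). The crypt call of Pola1 was lost by DESeq2, without sham crypt replicate 1 and without either hepatectomy crypt library (adjusted p up to 0.188). The primase subunits Prim1 and Prim2 fell by 0.42 ± 0.073 and 0.63 ± 0.11 in crypts and by 0.59 ± 0.080 and 0.68 ± 0.13 in IEC.

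For the polymerases that copy the strands, delta and epsilon, 4 of 5 genes were lower in crypts and 5 of 5 in IEC. Pold1, the catalytic subunit of delta, stood at 60.8 and 55.4 CPM in sham and 39.1 and 43.1 CPM in hepatectomy crypts, and at 49.4 and 49.6 against 32.9 and 30.4 CPM in IEC. Both comparisons showed no overlap, with -0.50 ± 0.070 (adjusted p = 0.000167) and -0.64 ± 0.073 (adjusted p = 2.14e-05). Pole, the catalytic subunit of epsilon, was at 15.7 and 15.02 CPM in sham and 14.4 and 12.2 CPM in hepatectomy crypts and did not pass (-0.21 ± 0.097, adjusted p = 0.11), but it passed without hepatectomy crypt replicate 1. In IEC it went from 13.2 and 12.03 to 7.55 and 7.21 CPM (-0.77 ± 0.11). Its small partner Pole2 fell by 0.72 ± 0.14 and 0.90 ± 0.16, and the delta subunits Pold2 and Pold3 fell by 0.39 ± 0.064 and 0.32 ± 0.074 in crypts and by 0.67 ± 0.068 and 0.51 ± 0.081 in IEC.

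Nucleotide synthesis held the largest single fall in crypts. Rrm1, the large subunit of ribonucleotide reductase, which makes deoxynucleotides, stood at 115 and 113 CPM in sham and 65.0 and 64.4 CPM in hepatectomy crypts. In IEC it stood at 77.5 and 76.8 against 47.0 and 44.8 CPM. Replicates lay within a few CPM of each other and the groups were far apart, with -0.82 ± 0.050 in crypts (adjusted p = 1.46e-07) and -0.75 ± 0.052 in IEC (adjusted p = 2.96e-07). The S phase subunit Rrm2 fell by 0.73 ± 0.063 in crypts and 0.66 ± 0.068 in IEC. Thymidylate synthase Tyms fell by 0.43 ± 0.052 and 0.60 ± 0.056, and the dUTPase Dut by 0.35 ± 0.059 and 0.57 ± 0.063. The salvage kinase Tk1 differed between the preparations: 82.0 and 79.1 against 71.4 and 74.3 CPM in crypts, which did not pass (-0.14 ± 0.059, adjusted p = 0.0733), and 63.2 and 57.3 against 41.8 and 43.2 CPM in IEC (-0.50 ± 0.062). Tyms and Pcna have named pseudogenes that could share their reads.

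Maintenance methylation, Okazaki fragment maturation and replication protein A were lower in 6 of 7 genes in crypts and 7 of 7 in IEC. Dnmt1, which copies CpG methylation to the new strand, went from 83.0 and 77.6 to 54.2 and 55.2 CPM in crypts (-0.55 ± 0.056, adjusted p = 1.22e-05) and fell by 0.78 ± 0.059 in IEC. Uhrf1, which recruits it, went from 78.3 and 78.4 to 58.7 and 58.1 CPM in crypts (-0.42 ± 0.051) and from 59.9 and 57.5 to 33.5 and 32.9 CPM in IEC (-0.82 ± 0.055). In both preparations and for both genes the groups did not overlap. Fen1, which trims Okazaki flaps, went from 111 and 108 to 75.9 and 82.4 CPM in crypts (-0.46 ± 0.061, adjusted p = 0.000101) and fell by 0.69 ± 0.065 in IEC. The ligase Lig1 went from 59.1 and 59.4 to 52.5 and 51.5 CPM in crypts (-0.19 ± 0.058), a call that was lost by DESeq2 and without any 1 of the 4 crypt libraries (adjusted p up to 0.107). In IEC Lig1 went from 50.4 and 47.5 to 30.0 and 32.5 CPM (-0.65 ± 0.062). Of the single-strand binding proteins, Rpa1 went from 59.3 and 56.6 to 33.5 and 38.9 CPM in crypts (-0.67 ± 0.074, adjusted p = 2.47e-05) and fell by 0.52 ± 0.079 in IEC, and Rpa2 fell by 0.52 ± 0.068 and 0.55 ± 0.072. The small subunit Rpa3 stood at 22.0 and 24.2 CPM in sham and 23.8 and 22.0 CPM in hepatectomy crypts, where the groups overlapped (-0.01 ± 0.076, adjusted p = 0.918), and at 20.5 and 20.3 against 15.2 and 15.3 CPM in IEC, where they did not (-0.42 ± 0.083).

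The G1/S regulators were the least uniform group, with 1 of 3 lower in each preparation. Cyclin E1, Ccne1, drives entry into S phase and went from 17.2 and 15.2 to 13.2 and 13.1 CPM in crypts (-0.30 ± 0.093, adjusted p = 0.0233), a call lost by DESeq2, without sham crypt replicate 1 and without either hepatectomy crypt library (adjusted p up to 0.202). In IEC Ccne1 had -0.30 ± 0.11 (adjusted p = 0.0541). Its relative Ccne2 did not pass in crypts (-0.33 ± 0.13) or in IEC (0.06 ± 0.14). E2f1 stood at 3.55 and 4.15 CPM in sham and 3.40 and 5.17 CPM in hepatectomy crypts, with overlap (0.16 ± 0.19). In IEC it stood at 3.77 and 4.02 against 2.56 and 2.35 CPM and fell (-0.66 ± 0.22, adjusted p = 0.0319), a call lost by DESeq2 and without any 1 of the 4 IEC libraries (adjusted p up to 0.126). E2f1 was thus the one gene of the 46 with a positive sign in crypts, at a level of a few CPM.

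The effects in crypts and IEC were compared directly with the interaction of preparation and surgery. Of the 46 genes, 8 had a smaller fall in crypts than in IEC (9.15% of all genes had a positive difference that passed) and 1 had a larger one (10.1% had a negative difference), while 37 did not pass (19.2% of all genes passed in either direction). The difference was above 0 for 35 of the 46, with a median of 0.18 on the log2 scale. The clearest were Lig1 (0.46 ± 0.085, adjusted p = 0.00288), Uhrf1 (0.40 ± 0.075, adjusted p = 0.00312) and Rfc1 (0.50 ± 0.10, adjusted p = 0.00453), which held in every alternative fit. Tk1 (0.36 ± 0.086) was lost without sham IEC replicate 1 (adjusted p = 0.0638). Mcm6, Pole, Rpa3 and Pola1 also passed, with 0.26 ± 0.075, 0.56 ± 0.15, 0.41 ± 0.11 and 0.40 ± 0.12. Rfc5 alone fell more in crypts (-0.26 ± 0.074). These 5 calls were lost in 5 of 13, 5 of 13, 7 of 13, 8 of 13 and 10 of 13 alternative fits (adjusted p up to 0.143, 0.0788, 0.0756, 0.146 and 0.17), with each of the 8 intestinal libraries ending at least 3 of them when left out. The count of smaller falls was 3 without sham IEC replicate 1, 4 without hepatectomy IEC replicate 2 and 5 without sham crypt replicate 2. Across the 46 genes the effects in crypts and IEC, which share no library, had Pearson's r of 0.449 and Spearman's rho of 0.525, a description over genes that are not independent.

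**Figure D3:**
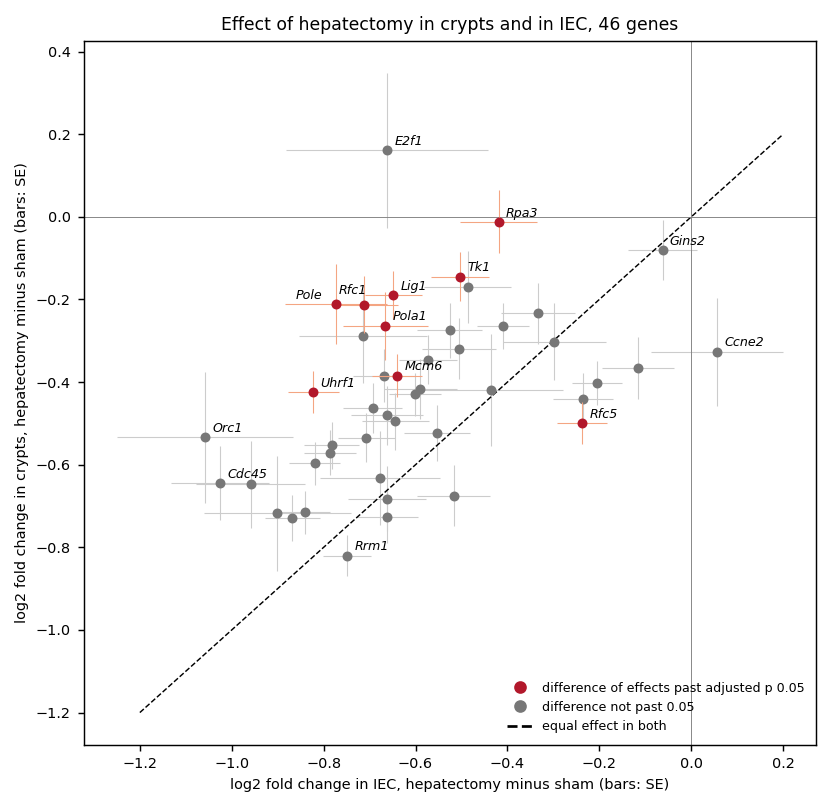
Log2 fold change after hepatectomy in crypts (vertical) against IEC (horizontal) for the 46 genes, with standard errors and a dashed line of equal effects. Red points are the 9 genes whose difference passed, of which 8 lie above the line and Rfc5 lies below it.

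Other genes of the same pathways, from lists around the 46 with mitosis genes kept apart, moved less uniformly. In crypts, 39 of 77 tested genes of these lists were lower and 10 were higher, against 18.3% and 19.2% of all genes tested. In IEC, 54 were lower and 6 were higher, against 18.3% and 19.5%. Among 14 further licensing and firing factors 6 were lower in crypts and 0 higher, including Orc2, an origin recognition subunit (-0.60 ± 0.095), Ticrr, which helps to load Cdc45 (-0.44 ± 0.11), and the firing kinase Cdc7 (-0.48 ± 0.13). The Cdc7 call was lost by DESeq2, without sham crypt replicate 1 and without hepatectomy crypt replicate 2 (adjusted p up to 0.108). Of 18 fork and checkpoint genes 10 were lower and 0 higher, including Chtf8 of the alternative clamp loader (-0.45 ± 0.066), Rnaseh2c of ribonuclease H2 (-0.33 ± 0.053) and the epsilon subunit Pole3 (-0.29 ± 0.053). Of 8 chromatin genes 7 were lower, such as the histone chaperone Asf1b (-0.67 ± 0.087) and Chaf1b of the CAF-1 complex (-0.43 ± 0.070).

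The exception among the chromatin genes was Usp1, the deubiquitinase of PCNA. It stood at 22.7 and 23.5 CPM in sham and 37.2 and 38.6 CPM in hepatectomy crypts (0.71 ± 0.10, adjusted p = 0.000218), and at 18.5 and 15.02 against 8.96 and 11.5 CPM in IEC (-0.72 ± 0.12). It was thus higher in crypts and lower in IEC, with no overlap of groups in either. In nucleotide supply, 5 of 11 further genes were lower in crypts. The pyrimidine synthesis enzymes Cad and Umps and the salvage kinase Dck fell (-0.76 ± 0.067, -0.50 ± 0.069 and -0.45 ± 0.072). The nucleotide hydrolase Samhd1 rose (0.28 ± 0.075), a call lost without sham crypt replicate 1 (adjusted p = 0.109).

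CDK inhibitors, the brakes of the cell cycle, were mostly higher in hepatectomy crypts. Of 7 CDK inhibitor genes listed, 6 were tested, and 4 of those were higher and 2 lower in hepatectomy crypts, while in IEC 1 was higher and 2 were lower. Among all genes tested, 19.2% were higher and 18.3% lower in crypts, and 19.5% were higher and 18.3% lower in IEC. Cdkn1a, which encodes p21, went from 101 and 100.3 to 137 and 137 CPM in crypts (0.44 ± 0.044) and from 175 and 176 to 232 and 228 CPM in IEC (0.39 ± 0.043). Cdkn2b went from 105 and 98.6 to 137 and 137 CPM in crypts (0.43 ± 0.050) and did not pass in IEC (0.11 ± 0.050). Cdkn2c, an inhibitor of CDK4 and CDK6, went from 6.05 and 4.72 to 11.6 and 15.2 CPM in crypts (1.33 ± 0.16, adjusted p = 4.86e-05), with -0.55 ± 0.23 in IEC (adjusted p = 0.0731). Cdkn2d and Cdkn1b were lower in crypts (-0.68 ± 0.092 and -0.28 ± 0.087), the latter a call lost by DESeq2, without sham crypt replicate 2 and without either hepatectomy crypt library (adjusted p up to 0.242).

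Of 20 other E2F, pocket protein and G1/S genes, 9 were lower and 3 higher in crypts. Cyclin A2, Ccna2, the S phase cyclin, fell (-0.66 ± 0.058), as did Cdk4 (-0.35 ± 0.045) and the D-type cyclin Ccnd3 (-0.56 ± 0.081). The 3 that rose were Cdc25a, a phosphatase that activates CDK2 (0.27 ± 0.060), E2f5 (0.29 ± 0.092) and E2f6 (0.43 ± 0.15), both of the repressive branch of the E2F family. These calls were lost in 1 of 14, 5 of 14 and 6 of 14 alternative fits, for Cdc25a without sham crypt replicate 2 and for E2f5 and E2f6 without either sham crypt library or hepatectomy crypt replicate 2 (adjusted p up to 0.0505, 0.21 and 0.226). Mitosis genes were lower in 22 of 23 cases in crypts and 23 of 23 in IEC, with medians of -0.66 and -0.92. Among them were the mitotic kinesin Kif20a (-0.96 ± 0.070 in crypts), the anaphase activator Cdc20 (-0.69 ± 0.048) and Top2a, which untangles chromosomes (-0.62 ± 0.046).

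The summed level of the 46 genes gives the scale of the change. It was 2281 ± 32.4 CPM (SD, n = 2) in sham crypts, 1670 ± 10.4 CPM in hepatectomy crypts, 1770 ± 27.0 CPM in sham IEC and 1173 ± 18.5 CPM in hepatectomy IEC. Divided by the summed level of the 23 mitosis genes, this was 1.30 ± 0.020 in sham and 1.40 ± 0.0086 in hepatectomy crypts, and 1.56 ± 0.032 in sham and 1.95 ± 0.018 in hepatectomy IEC. The mitosis sum was thus lower by a larger factor than the replication sum in each preparation.

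Crypts held more replication transcripts than IEC, before and after surgery. In sham libraries 36 of 46 genes were higher in crypts, 0 were lower and 10 did not pass, against 19.3% higher among all genes tested, with a median log2 difference of 0.37. After hepatectomy 42 were higher, 0 lower and 4 did not pass, against 26.3% higher and 25.6% lower, or 51.9% in either direction, among all genes, with a median of 0.56. Of these, 34 were higher in both states, and the share of all genes higher in both was not counted. Those that did not pass were Orc1, Orc6, Cdc6, Cdt1, Gins4, Rfc1, Pole2, Rpa3, Ccne2 and E2f1 in sham, and Gins4, Rfc2, Pola2 and Ccne2 after hepatectomy. The sham calls were less settled, with 25 of 36 held in every alternative fit against 37 of 42 after hepatectomy, and the count in sham ranged from 27 to 36. All 8 enterocyte markers were lower in crypts than in IEC in both states. So were 5 of 6 Paneth cell and 5 of 6 goblet cell markers in sham, and all 6 of each after hepatectomy. Of 6 crypt stem cell markers, 3 were higher and 2 lower in crypts in sham, and 4 were higher and 1 lower after hepatectomy. The part of these markers in the difference was not tested.

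Cyclin E1 had the largest crypt excess among the 46 in sham. Ccne1 stood at 17.2 and 15.2 CPM in sham crypts and 8.09 and 9.16 CPM in sham IEC, a difference of 0.91 ± 0.10 on the log2 scale (adjusted p = 1.86e-05), and the difference after hepatectomy was 0.90 ± 0.10. Fen1 followed with 0.63 ± 0.062 in sham and 0.86 ± 0.064 after hepatectomy, and Cdc45 with 0.63 ± 0.093 and 1.01 ± 0.10. All MCM2-7 subunits and all nucleotide synthesis genes were higher in crypts in both states. The smallest of these was Mcm6 in sham (0.17 ± 0.053), a call lost by DESeq2, with the other scaling, with only the groups compared, without sham IEC replicate 2 and without either sham crypt library (adjusted p up to 0.224). Of the 5 licensing genes 1 passed in sham (Mcm10, 0.43 ± 0.079) and 5 after hepatectomy, of which Orc1 had the largest excess (0.91 ± 0.19). E2f1 had -0.01 ± 0.20 in sham, with overlapping groups, and 0.81 ± 0.21 after hepatectomy, a call lost without hepatectomy crypt replicate 2 (adjusted p = 0.0752).

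In the libraries labelled liver, replication transcripts were lower on day 10 than on day 0. Of the 46 genes, 41 were lower, 1 was higher and 4 did not pass, against 18.8% lower and 24.7% higher among the 16694 genes tested. The median log2 fold change was -0.80, against 0.10 over all genes. Beside this, 7 of 8 enterocyte markers were higher and 3 of 6 stem cell markers lower. Of 9 hepatocyte markers 7 were higher (median 1.03), with sums of 2013 to 3280 CPM on day 10, as were 4 of 5 fibroblast markers (sums of 1.71 to 2.75 against 3.42 to 13.9 CPM) and 3 of 5 macrophage markers (3.26 to 4.06 against 5.66 to 9.81 CPM). Of 6 T and NK cell markers 2 were lower, and the Paneth cell sum ran from 32804 to 44758 CPM on day 0 and from 6711 to 98932 CPM on day 10. The part of these shifts was not tested. Day 10 replicate 3 had the fewest counts of the series and the lowest level of its group for 27 of the 46 genes. Counts of lower genes ran from 38 to 41 over the alternative fits, including those without it.

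The MCM2-7 ring fell as a unit, with 6 of 6 lower and fold changes between -0.99 ± 0.16 for Mcm7 and -1.12 ± 0.16 for Mcm3. Mcm2 stood at 189, 172 and 156 CPM on day 0 and 86.3, 68.4 and 91.0 CPM on day 10. Every day 10 library was below every day 0 library (-1.07 ± 0.15, adjusted p = 0.0008). Mcm5 went from 238, 181 and 177 to 99.97, 85.6 and 102 CPM (-1.05 ± 0.16) and Mcm4 from 99.5, 123 and 122 to 63.7, 41.6 and 57.8 CPM (-1.08 ± 0.17). For Mcm3 the values were 188, 144 and 149 CPM on day 0 and 79.6, 70.4 and 71.2 CPM on day 10. In each of these 4 genes the days did not overlap. All 5 licensing and all 5 CMG genes were lower too, including Cdc45 (-1.18 ± 0.19) and Gins2 (-1.03 ± 0.18). Gins2, which had shown the least difference of the GINS subunits after hepatectomy, went from 54.0, 40.5 and 39.2 to 23.5, 23.1 and 18.7 CPM.

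The largest fall on day 10 was again that of Rrm1. It stood at 216, 193 and 193 CPM on day 0 and 88.9, 65.9 and 93.8 CPM on day 10, with no overlap (-1.28 ± 0.16, adjusted p = 0.000296). Fen1 followed, from 193, 138 and 129.6 to 73.9, 59.2 and 65.7 CPM (-1.21 ± 0.17), and then Cdc45. Rfc5 went from 105, 81.4 and 75.9 to 45.7, 34.6 and 39.4 CPM (-1.13 ± 0.16) and Rpa1 from 111, 90.1 and 89.4 to 52.9, 39.7 and 49.8 CPM (-1.03 ± 0.15). By role, 5 of 6 clamp and loader genes (median -0.81), 3 of 4 of polymerase alpha and primase (-0.67), 4 of 5 of polymerases delta and epsilon (-0.75), 5 of 5 nucleotide synthesis genes (-0.75) and 3 of 3 of replication protein A (-0.98) were lower. E2f1 was the single gene that rose, from 4.99, 5.87 and 4.98 to 8.02, 11.9 and 5.59 CPM, with overlapping groups (0.69 ± 0.26, adjusted p = 0.0456). That call was lost in 11 of 16 alternative fits, among them those without any 1 library other than day 10 replicate 3 (adjusted p up to 0.258). Lig1 fell by 0.50 ± 0.19 and its call was lost in 9 of 16 fits, among them those without day 0 replicate 1 (adjusted p = 0.104) or day 10 replicate 3 (adjusted p = 0.0868) or any 1 day 20 library. The call of Rpa3 was lost without day 0 replicate 1 or day 10 replicate 3 (adjusted p up to 0.12). That of Ccne2 was lost without day 0 replicate 1 or 2 or day 10 replicate 2 or 3 (adjusted p up to 0.1).

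Day 0 replicate 1 stood apart from its group in a gene-dependent way. It was the highest of the 3 libraries for 39 of the 46 genes and the lowest for 5, namely Dnmt1, Pole, Pola1, Mcm4 and Mcm10, a set named after its values were seen. The same counts over all genes were not made. The longest transcripts of these 5 ran from 3589 to 7163 bases, against a median of 3010 bases over the 46 genes. Rrm1 and Rpa1, with 5475 and 5077 bases, were highest in this library. The part of transcript length was not tested. Dnmt1 stood at 63.5, 161 and 155 CPM on day 0 and 112, 98.1 and 87.1 CPM on day 10, and did not pass (-0.35 ± 0.27). Without day 0 replicate 1 its log2 fold change was -0.78 (adjusted p = 0.00745). Pole stood at 14.8, 26.1 and 24.8 against 22.5, 22.0 and 18.0 CPM (-0.07 ± 0.21) and Pola1 at 33.6, 46.7 and 45.8 against 42.4, 36.8 and 28.6 CPM (-0.23 ± 0.18). Without that library they had -0.40 (adjusted p = 0.0913) and -0.47 (adjusted p = 0.0716), so neither passed. Rfc1, the fourth gene that did not pass, stood at 78.4, 68.9 and 68.2 against 66.5, 68.2 and 39.5 CPM, with day 10 replicate 3 apart from the others (-0.31 ± 0.19).

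**Figure D4:**
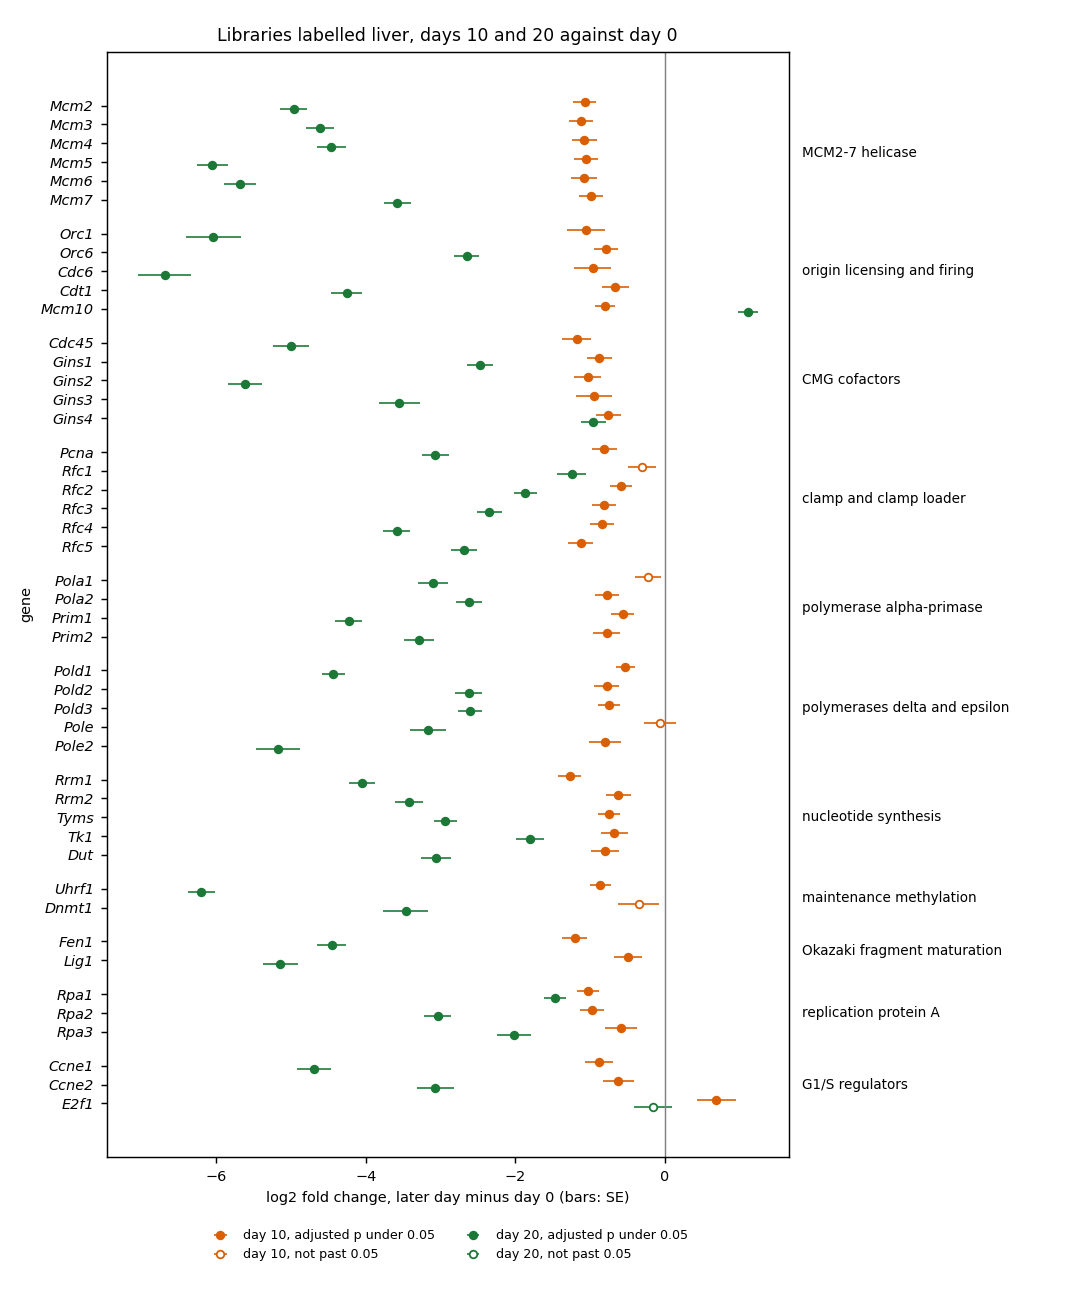
Log2 fold change of each of the 46 genes on day 10 (orange) and day 20 (green) against day 0 in the libraries labelled liver, with standard errors, grouped by role. Day 10 points cluster near -0.80, day 20 points spread from -6.69 for Cdc6 to 1.11 for Mcm10, and open points did not pass.

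By day 20, when the libraries carried hepatocyte markers, every role had a negative median log2 fold change against either earlier day. The summed level of the 5 licensing genes was still 166 to 170 CPM on day 20 against 142 to 164 CPM on day 10. Mcm10 held 154 CPM of that day 20 sum. Against day 0, 44 of 46 genes were lower, 1 was higher and 1 did not pass, beside 38.1% lower and 33.3% higher among all genes. The median log2 fold change was -3.36, against -0.16 over all genes. Against day 10 the counts were also 44 lower, 1 higher and 1 not passed (40.3% lower and 30.8% higher, or 71.1% in either direction, among all genes), with a median of -2.68. A fall on day 10 and a further fall from day 10 to day 20 was found for 39 genes. Both steps share the day 10 libraries, and the share of all genes lower at both was not counted. All 9 hepatocyte markers were higher and all 6 stem cell markers lower on day 20 than on day 0, and with tissue markers this far apart, day and tissue content cannot be told apart.

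The size of the fall differed by role. Mcm5 went from 238, 181 and 177 CPM on day 0 to 2.83, 2.70 and 3.42 CPM on day 20 (-6.05 ± 0.20, adjusted p = 8.87e-11), and Uhrf1 from 146, 133 and 137 to 1.87, 1.58 and 2.16 CPM (-6.20 ± 0.18). The loaders Cdc6 and Orc1 fell to a handful of reads, with 7, 2 and 11 reads for Cdc6 and 6, 3 and 4 reads for Orc1 in the day 20 libraries (-6.69 ± 0.36 and -6.05 ± 0.37). The smallest falls besides that of Gins4 were those of Rfc1, Rpa1 and Tk1. Rpa1 stood at 34.7, 34.7 and 35.5 CPM on day 20 (-1.47 ± 0.15), Rfc1 at 29.1, 28.9 and 32.9 CPM (-1.25 ± 0.19) and Tk1 at 37.6, 33.4 and 36.3 CPM (-1.80 ± 0.19). Exons of Tk1 overlap the annotated spans of Afmid and Gm20708 and exons of Rpa1 that of Gm47300, introns included. These levels are therefore uncertain, as are those of all 16 of the 46 genes whose exons overlap the span of another annotated gene. The medians by role ran from -2.02 for replication protein A and -2.52 for the clamp and its loader to -4.79 for MCM2-7 and -4.84 for maintenance methylation. Over the 16 genes with an octamer in the promoter window the median was -4.52, and over the 22 without one it was -2.99.

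For the other roles, the gene of each with the smallest p on day 20 against day 0 is given. A wide gap from day 0 follows from that choice. Cdt1 stood at 125, 98.4 and 96.1 CPM on day 0 and 5.37, 4.83 and 6.44 CPM on day 20 (-4.26 ± 0.21), and Gins2 at 1.03, 0.966 and 0.720 CPM on day 20 (-5.62 ± 0.23). Rfc4 went from 78.0, 58.3 and 58.7 to 4.96, 5.95 and 5.29 CPM (-3.59 ± 0.18) and the primase subunit Prim1 from 71.6, 56.5 and 56.5 to 2.98, 3.56 and 3.31 CPM (-4.23 ± 0.18). For all 4 genes the day 20 libraries lay close together and below every day 0 and day 10 library. Pold1 went from 115, 107 and 96.8 to 4.93, 4.56 and 5.25 CPM (-4.43 ± 0.16) and Rrm1 stood at 12.1, 11.4 and 12.8 CPM on day 20 (-4.05 ± 0.18). Fen1 stood at 7.42, 6.96 and 6.51 CPM (-4.46 ± 0.20) and Rpa2 went from 123, 87.0 and 90.3 to 12.3, 12.7 and 11.5 CPM (-3.04 ± 0.18). Ccne1, at 24.5, 21.4 and 17.6 CPM on day 0, stood at 0.919, 0.773 and 0.756 CPM on day 20 (-4.69 ± 0.23), below 1 CPM in each of the 3 libraries.

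Mcm10 was the exception on day 20. It stood at 68.3, 71.9 and 74.8 CPM on day 0, 43.3, 36.3 and 43.6 CPM on day 10 and 158, 153 and 152 CPM on day 20. The 3 day 20 libraries were the highest and agreed closely, with no overlap with either earlier day. The log2 fold change was 1.11 ± 0.13 against day 0 (adjusted p = 6.07e-06) and 1.91 ± 0.14 against day 10 (adjusted p = 3.78e-08), and both calls held in every alternative fit. The value rests on 4288, 3969 and 4238 reads. In GENCODE no other annotated gene lies over the exons of Mcm10. The gene spans 4989714 to 5012791 on the minus strand of chromosome 2 in mm10. The annotation with which the libraries labelled liver were counted is not given, so the exons counted there are not known. The share of Mcm10 in the summed RPKM of the 5 licensing genes went from 13.5% ± 2.13 (SD, n = 3) on day 0 to 80.6% ± 1.501 on day 20.

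Other members kept part of their level on day 20. Gins4 stood at 28.4, 25.8 and 23.5 CPM on day 10 and 23.9, 20.9 and 22.9 CPM on day 20, with overlapping groups (-0.20 ± 0.17, adjusted p = 0.308), after a fall from day 0 (-0.96 ± 0.17 on day 20). Its share of the summed RPKM of the CMG cofactors was 43.0% ± 0.68 on day 0 and 81.9% ± 1.01 on day 20, while that of Gins2 went from 14.4% ± 0.46 to 1.08% ± 0.20. E2f1 stood at 5.11, 4.25 and 4.82 CPM on day 20 and did not pass against day 0 (-0.16 ± 0.26). Within the MCM2-7 ring, Mcm7 stood at 14.7, 16.4 and 17.6 CPM and its share of their summed RPKM went from 16.6% ± 0.76 to 37.5% ± 2.55, with the overlapping genes named above.

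**Figure D5:**
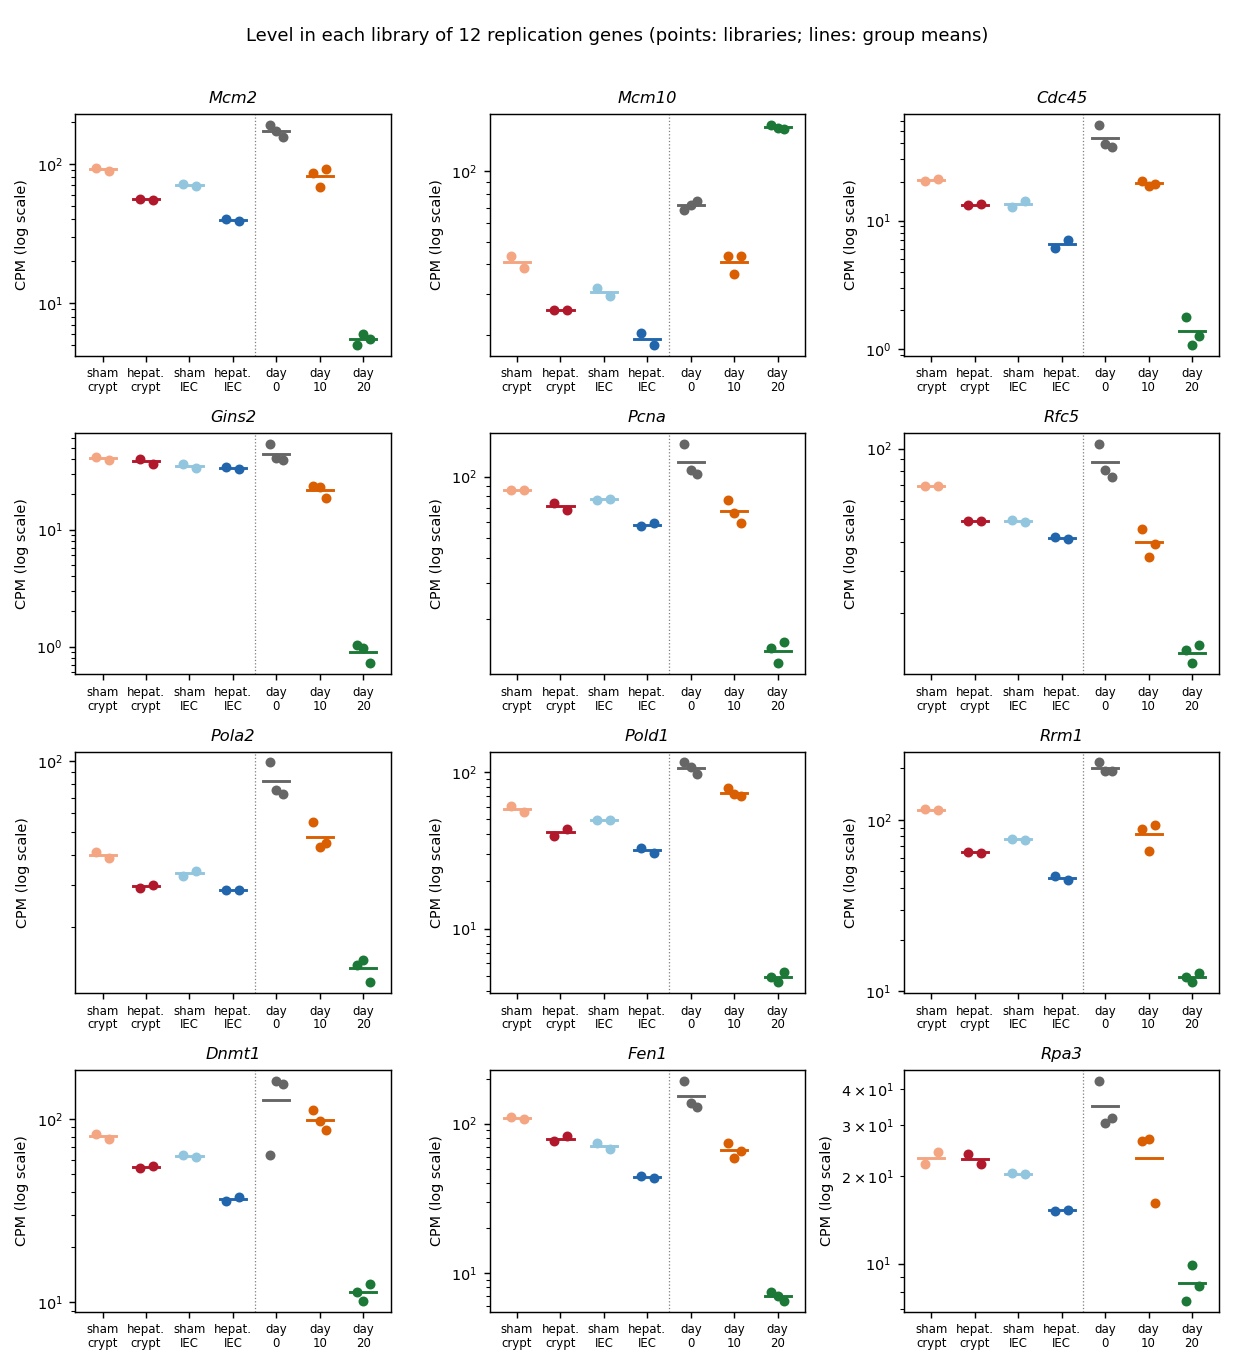
Level in CPM, on a log axis, of 12 replication genes in each of the 17 libraries, with points for libraries and lines for group means. CPM were normalised separately on the left (intestine) and right (labelled liver) of the dotted line. Most genes step down from sham to hepatectomy and from day 0 to day 20, Gins2 shows almost no step after hepatectomy, and Mcm10 is highest on day 20.

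Summed over the 46 genes, the level was 4144 ± 482.0 CPM (SD, n = 3) on day 0, 2311 ± 196.1 CPM on day 10 and 585 ± 7.72 CPM on day 20. Of the 23 mitosis genes, 17 were lower and 1 was higher on day 10, and 23 were lower on day 20, with a median of -5.96. The replication sum divided by the mitosis sum was 1.65 ± 0.086 on day 0, 1.45 ± 0.18 on day 10 and 14.2 ± 1.86 on day 20. On day 20 the mitosis sum was only 36.2 to 48.2 CPM, and Mcm10, which rose, held 154 CPM of the replication sum. Of the other genes of the lists around the 46, mitosis genes left out, 35 of 76 tested were lower and 3 higher on day 10 (18.8% and 24.7% of all genes). On day 20, 60 were lower and 5 higher (38.1% and 33.3% of all genes). Lower in hepatectomy crypts, in hepatectomy IEC and on both later days against day 0 were 32 of the 46 genes. The same share over all genes was not counted. Day 10 and day 20 share their day 0 libraries, so their calls are not independent.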

How the data were processed

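RNA-seq libraries of mouse small intestine (8, in 4 groups) and of samples labelled liver (9, in 3 groups) were compared. Intestinal libraries were deposited by the authors in the form of estimated counts per gene symbol, rounded here because 34.3 to 39.5% of the gene values in a library were not whole. The libraries labelled liver were deposited by the authors as whole-number counts per gene identifier. Per the submitters' processing notes, mm10, STAR and Partek were used, and their versions, the annotation and the strand of counting are not given in the sources used here. Of 24594 identifiers 24570 matched a symbol, and the 24 others held 3.93 to 22.1% of a library's counts and stayed in library sizes.

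Each tissue table was normalised and fitted separately with edgeR 4.0.16 in R 4.3.3 (TMM, filterByExpr with a minimum count of 10 and minimum total of 15, quasi-likelihood test), with Benjamini-Hochberg adjustment over all genes tested and a threshold of 0.05. The scripts were tested on simulated data. CPM use TMM library sizes, and RPKM divide by the union of exons in GENCODE. Values after ± are standard errors for log2 fold changes and SD where so written. Alternatives were DESeq2 1.42.0, RLE scaling, no or a stricter filter (5 CPM in a group), a replicate block, fewer groups, leaving out each library, and a fit of day 0 and day 10 without day 10 replicate 3, which was chosen after seeing the data. RefSeq promoters are on GRCm38.p6.

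The 46 genes and all lists were chosen with earlier results of these data known. Values per library were printed for the gene of each role with the smallest p in crypts and on day 20, for the 8 with the smallest p on day 10, for genes that did not pass or ran opposite to their role in crypts, and for those whose difference of effects passed. Other genes of the pathways were named for the 3 smallest p per list in crypts or an opposite direction, and 1 such gene is not reported here. Libraries with the same replicate number did not deviate together (correlations from -0.03 to 0.042), so no pairing was assumed.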

Additional observations from a re-analysis of the deposited data

Results flagged for a closer look

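For 20 genes named in the comparison of hepatectomy and sham, the effect differed between crypts and IEC by the interaction test of edgeR. Among the 46 replication genes these were Mcm6 (0.26 ± 0.075 on the log2 scale, effect in crypts minus effect in IEC, adjusted p = 0.0327), Rfc1 (0.50 ± 0.10, adjusted p = 0.00453), Rfc5 (-0.26 ± 0.074, adjusted p = 0.0285), Pola1 (0.40 ± 0.12, adjusted p = 0.0397), Pole (0.56 ± 0.15, adjusted p = 0.0197), Tk1 (0.36 ± 0.086, adjusted p = 0.0122), Uhrf1 (0.40 ± 0.075, adjusted p = 0.00312), Lig1 (0.46 ± 0.085, adjusted p = 0.00288) and Rpa3 (0.41 ± 0.11, adjusted p = 0.0257). All but Rfc5 fell less in crypts. Every replication gene whose difference passed was named by rule, so this list restates that result. Among all genes tested, 19.2% passed in either direction.

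Of the other genes of the pathways named in that comparison, the cell cycle inhibitor Cdkn2c (1.88 ± 0.28, adjusted p = 0.000621), the PCNA deubiquitinase Usp1 (1.43 ± 0.16, adjusted p = 9.83e-05) and the repressor E2f6 (1.09 ± 0.23, adjusted p = 0.00657) had positive differences. Smaller positive differences were found for E2f5 (0.58 ± 0.14, adjusted p = 0.0109), Ccna2 (0.41 ± 0.084, adjusted p = 0.00536), Top2a (0.41 ± 0.066, adjusted p = 0.00125), Chaf1b (0.37 ± 0.10, adjusted p = 0.0274), Cdkn2b (0.32 ± 0.071, adjusted p = 0.00743) and Cdc20 (0.28 ± 0.069, adjusted p = 0.0151). Negative differences were found for Samhd1 (-0.34 ± 0.11, adjusted p = 0.0414) and Pole3 (-0.29 ± 0.077, adjusted p = 0.0217).

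The calls of Usp1, E2f6, Ccna2, Cdkn2b, Cdkn2c and Top2a held in all 13 alternative fits. That of E2f5 was lost by DESeq2 (adjusted p = 0.0579), and that of Cdc20 without sham IEC replicate 2 or sham crypt replicate 2 (adjusted p up to 0.0581). Those of Pole3, Chaf1b and Samhd1 were lost in 9 of 13, 7 of 13 and 10 of 13 alternative fits (adjusted p up to 0.128, 0.106 and 0.217), each without 6 or more single libraries.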

How the results depend on the processing

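Counts of lower replication genes kept their direction in every alternative fit, from 31 to 41 in crypts, 38 to 43 in IEC, 38 to 41 on day 10 and 44 on day 20. The difference between preparations was less settled: 5 genes with a positive difference passed by DESeq2 and 3 to 8 with 1 library left out, and the count with a negative difference was 0 by DESeq2, 0 without the low-count filter, 3 with the stricter filter and 0 with 1 library left out. The cause was not tested. The single rise on day 10 gave 0 without the low-count filter, 0 with the replicate block, 0 with only the groups compared and 0 to 1 with 1 library left out. Cdkn2b on day 10 turned from 0.18 to -0.63 without day 10 replicate 3 (range -0.63 to 0.44 with 1 library left out) and to -0.67 with only day 0 and day 10 and without that library. For single genes and alternatives, 8143 values kept their call, 310 lost it, 50 gained one and 2 reversed. Of 5285 values for the 46 genes, 46 changed sign without passing in either fit, the largest of size 0.16. RLE scaling or DESeq2 moved the median of all genes by at most 0.023 on the log2 scale. Median RPKM in sham crypts moved from 10.8 to 14.5 with the longest transcript, and the share of promoters with a match from 42.1% to 63.2% with the shorter motif.

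With 2 libraries per group, precision rests on a spread shared across groups, and a left-out library leaves 1, assumed to vary like the others. Orc1, E2f1 and Gins3 stood at a few CPM; the part of depth in their unstable calls was not tested.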

Other observations

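Cyclin D1, Ccnd1, which drives cells through G1, was singled out after its values were seen. It stood at 242 and 245 CPM in sham and 249.7 and 244 CPM in hepatectomy crypts, where it did not pass (0.02 ± 0.047, adjusted p = 0.772 in edgeR's test). In IEC it stood at 140.0 and 137 CPM in sham and 53.7 and 50.0 CPM after hepatectomy, with no overlap (-1.42 ± 0.051, adjusted p = 9.11e-10). The difference between the effects was 1.44 ± 0.069 (adjusted p = 1.23e-07), larger than that of any of the 46 replication genes.

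Mki67, a common marker of dividing cells, was the mitosis gene that did not pass in crypts (-0.17 ± 0.063, adjusted p = 0.0564) and the one that was higher on day 10 (0.68 ± 0.23), a call lost in 10 of 16 alternative fits (adjusted p up to 0.198).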
